A study of Mus musculus with 7 samples.

Results

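The genes described here are 9 regulators and readouts of cell-cycle arrest: the cyclin-dependent kinase (CDK) inhibitors Cdkn1a, Cdkn1b, Cdkn1c, Cdkn2a and Cdkn2b, the tumour suppressor Trp53 and its inhibitor Mdm2, the lamin Lmnb1 and the secreted stress factor Gdf15. They were chosen by symbol, and all 9 had a row among the 21861 rows of the deposited count table. The samples came from retinal pigment epithelium (RPE), a pigmented monolayer that supports the photoreceptors, of aged mice given an adeno-associated virus (AAV). The vector carried GFP in the Old-GFP group (3 libraries) or GSTA4, a glutathione transferase that conjugates lipid aldehydes, in the Old-GSTA4 group (4 libraries). Tissue of both groups was taken 12 weeks after treatment, so age and AAV exposure were shared by all libraries, and no untreated or young group is compared here. The strain, the exact age, the sex, the promoter of the vector and the number of animals per library are not given in the sources used here, and p-values therefore measure only the spread between these libraries.

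CDK inhibitors bind CDKs, alone or in complex with cyclins, and hold the retinoblastoma protein (RB) in the form that blocks entry into the cell cycle. The transcription factor p53, encoded by Trp53, is kept low by the ubiquitin ligase MDM2 and, once released, raises transcription of Cdkn1a and of Mdm2 itself. Senescent cells are commonly recognised by raised Cdkn2a and Cdkn1a and by loss of lamin B1. The RPE of adult mice is largely post-mitotic, so these genes are read there mainly as markers of stress and ageing.

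Libraries held 15329181 to 28998964 counts. The human transgene row hGSTA4 had 1 to 3 counts in the Old-GFP libraries and 45 to 5239 in the Old-GSTA4 libraries. Old-GSTA4 replicate 3 held the fewest of its group, 2.65 CPM (counts scaled to the library total and between libraries by edgeR's trimmed mean, TMM) against 43.7 to 251 CPM in the other 3. Each Old-GSTA4 library was above every Old-GFP library (0.0386 to 0.140 CPM). The 12 RPE markers all had counts in every library, with a summed level of 21800 to 68610 CPM in Old-GFP and 59460 to 106400 CPM in Old-GSTA4. Rod photoreceptor markers (12 of 12 with counts in every library) summed to 13880 to 38250 CPM in Old-GFP and 7019 to 13020 CPM in Old-GSTA4. These ranges did not overlap, so the fits below with a rod score as covariate cannot fully separate rod content from vector group. Old-GFP replicate 3 stood apart, with a mean correlation of 0.838 with the other libraries against 0.910 to 0.926 for each of the others, and it had the lowest RPE and the highest rod level. Old-GSTA4 replicate 2 had the highest summed level of lens fibre markers, 100200 CPM against 2684 to 22290 CPM elsewhere. Y-linked genes summed to 307 CPM or more in Old-GFP replicate 1 and Old-GSTA4 replicates 3 and 4 and to 2.83 CPM or less in the other 4 libraries. In such bulk RNA, fewer cells of a type and less RNA per cell cannot be told apart.

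The sequences below show where the p53 half-site consensus, a palindrome that reads alike on both strands, occurs near the annotated starts of these genes, because Cdkn1a and Mdm2 are textbook p53 targets. Windows of 300 bases, from 250 before to 50 after each start, were taken from RefSeq (GRCm38.p6) for 7 of the 9 genes. Cdkn1c and Lmnb1 had no entry. The consensus was found in 3 of the 10 windows of these genes, and in 8.36% of all 32851 windows. Each stretch is written 5′ to 3′ on the strand of the gene, with half-sites in capitals.
Cdkn1a, upstream start (chr17:29090882-29090961, plus strand): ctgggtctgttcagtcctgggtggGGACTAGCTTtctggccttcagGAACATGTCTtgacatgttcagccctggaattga
Mdm2 (chr10:117710900-117710979, minus strand): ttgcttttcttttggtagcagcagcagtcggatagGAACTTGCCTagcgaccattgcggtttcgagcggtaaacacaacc
Trp53 (chr11:69580249-69580328, plus strand): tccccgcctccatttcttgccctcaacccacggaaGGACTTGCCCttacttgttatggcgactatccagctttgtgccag
The Cdkn1a stretch held 2 exact half-sites separated by 12 bases, beginning 73 and 51 bases before the upstream start, and 0.359% of all windows held at least 2. Only exact matches were marked. A near match, such as the bases directly after the second Cdkn1a half-site, was therefore left in small letters and not counted. The window at the second annotated Cdkn1a start held none, which says only that these letters are not in that window.

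The comparison of Old-GSTA4 with Old-GFP addresses whether GSTA4 expression altered the transcript levels of these genes in the aged RPE. No member passed: 0 were called by edgeR's quasi-likelihood test at the adjusted threshold of 0.05, as were 0% of the 15075 genes tested. The transgene row hGSTA4 was not called either, at a log2 fold change of 10.7 ± 1.77 (SE) and an edgeR adjusted p of 0.363. It was called without Old-GSTA4 replicate 3, the library of its group with the least hGSTA4 (edgeR adjusted p = 0.0173). A missing call therefore does not show that a gene was unchanged. Before adjustment, 0 of the 8 testable members had a p-value under 0.05 by edgeR, DESeq2 or limma-voom. The share over all genes by edgeR was 11.9%, of which 5.27% were higher and 6.63% lower in Old-GSTA4. The CPM of the groups overlapped for all 8 tested genes, whereas the groups did not overlap for 12.0% of all genes. The fitted log2 fold changes ran from -0.82 (Lmnb1) to 0.70 (Gdf15), with a median of 0.11 beside -0.07 over all genes tested. Cdkn2a, the ninth gene, had no counts.

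**Figure D1:**
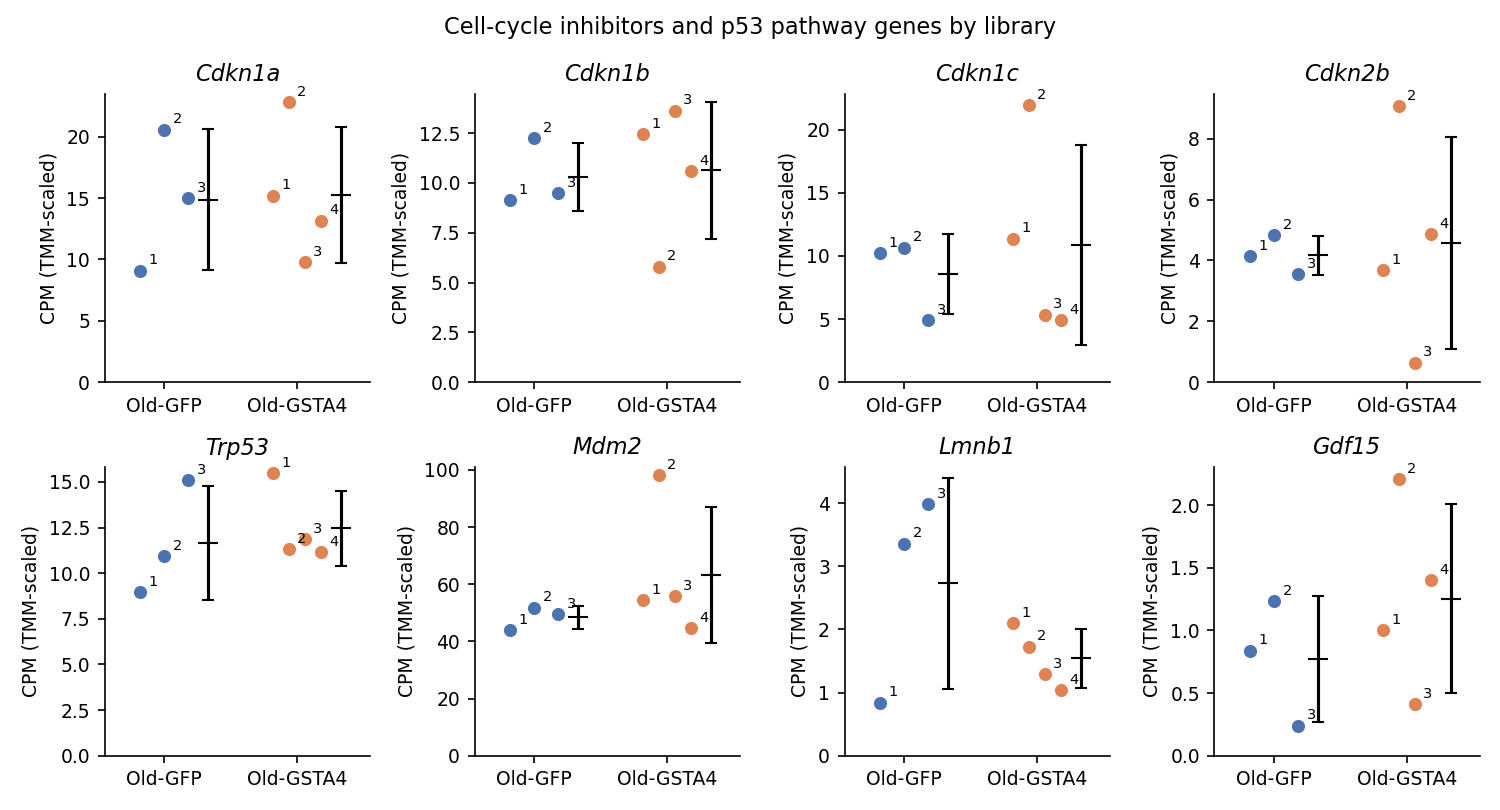
TMM-scaled counts (CPM) of the 8 detected genes in each library, with the replicate number beside each point and the group mean ± SD in black (n = 3 Old-GFP, n = 4 Old-GSTA4). The groups overlap in every panel, and Old-GSTA4 replicate 2 is the highest point for Cdkn1a, Cdkn1c, Cdkn2b, Mdm2 and Gdf15.

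Cdkn1a encodes p21, the main p53-induced CDK inhibitor (chr17:29090979-29100722, plus strand, GRCm38.p6). Its level was 9.09, 20.6 and 14.98 CPM in Old-GFP replicates 1 to 3 and 15.2, 22.8, 9.76 and 13.2 CPM in Old-GSTA4 replicates 1 to 4. Both groups covered nearly the same range, with a low and a high library in each. The means were 14.9 CPM ± 5.75 (SD, n = 3) and 15.2 CPM ± 5.54 (SD, n = 4). Old-GSTA4 against Old-GFP gave a log2 fold change of 0.03 ± 0.37 (SE, 95% interval -0.81 to 0.87, edgeR adjusted p = 0.981). Its sign depended on single libraries: without Old-GFP replicate 1 it was -0.22, and without Old-GSTA4 replicate 2 it was also -0.22. Exons of AC167363.2, a gene on the other strand with no row in the table, overlap 273 bases (7.68%) of the Cdkn1a exon length in GENCODE M21.

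Cdkn1a also divided the libraries in another way. The 3 libraries with Y-linked counts held its 3 lowest values, 9.09 to 13.2 CPM, and the 4 others held 14.98 to 22.8 CPM. The labels give no sex. Lmnb1 was split in the same way, and these were 2 of the 8 tested genes, where 7.21% of all genes did not overlap between these classes. Where Y-linked counts were present, Cdkn1a measured 9.09 CPM in the single Old-GFP library, below the 2 Old-GSTA4 libraries (9.76 to 13.2 CPM). Where they were not, the vector groups overlapped, at 14.98 to 20.6 CPM in Old-GFP and 15.2 to 22.8 CPM in Old-GSTA4. With a Y-linked score in the model the log2 fold change was 0.28 ± 0.32 (SE).

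Cdkn1b encodes p27, which maintains the resting state in many post-mitotic cells (chr6:134920401-134925525). It measured 9.13, 12.2 and 9.51 CPM in Old-GFP and 12.5, 5.81, 13.6 and 10.6 CPM in Old-GSTA4. Old-GSTA4 replicate 2 was the lowest of the 7 libraries and the other 3 of its group lay at 10.6 CPM or above. The fitted log2 difference was 0.04 ± 0.35 (SE, 95% interval -0.74 to 0.83, edgeR adjusted p = 0.975). The library with the least Cdkn1b had the most Cdkn1a, Cdkn1c and Cdkn2b.

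Cdkn1c encodes p57, the third member of this inhibitor family and an imprinted gene needed for cell-cycle exit in development, including that of lens fibres (chr7:143458339-143461059). Its values were 10.2, 10.7 and 4.95 CPM in Old-GFP and 11.4, 21.9, 5.35 and 4.94 CPM in Old-GSTA4. Old-GSTA4 replicate 2 was far above the Old-GFP range, with the others of its group at or near the ends of that range, and its lens fibre marker level was also the highest. Old-GSTA4 replicates 1 and 2, at 22290 and 100200 CPM of lens fibre markers, had the 2 highest Cdkn1c values, while Old-GFP replicate 3 and Old-GSTA4 replicate 3, with the 2 lowest lens levels (2684 and 3980 CPM), had 4.95 and 5.35 CPM. Old-GSTA4 replicate 4 had 4.94 CPM at a lens level of 11050 CPM. With a lens score as covariate, added after the data were seen, the Cdkn1c log2 fold change was -0.64 ± 0.38 (SE), and the part of lens tissue was not tested otherwise. Fitted over all libraries, the log2 fold change was 0.34 ± 0.55 (SE, 95% interval -0.90 to 1.58, edgeR adjusted p = 0.837), and it was -0.24 without Old-GSTA4 replicate 2. The GENCODE M21 annotation places exons of the antisense gene Gm44732 over 625 bases (30.7%) of the Cdkn1c exon length. That gene has no row in the table, and the strand setting of the counting is not given, so reads of the pair cannot be told apart.

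The INK4 inhibitors act on CDK4 and CDK6, and Cdkn2a and Cdkn2b lie side by side on chromosome 4. Cdkn2a (chr4:89274473-89294619), whose 2 promoters give p16 and ARF, had 0 counts in all 7 libraries. The limit that a count of 0 allows, set at 3 counts, was 0.111 to 0.176 CPM in a single library, for counting error only. Over the 153151640 counts of all libraries, without TMM scaling, it was 0.0196 CPM. Transcripts of this senescence marker were therefore not detectable at this depth in either group, and no fold change can be given. It was 1 of 2002 rows (9.16% of the table) without any count. No exon of another gene overlaps those of Cdkn2a in GENCODE M21, and the 2 transcripts of its locus are counted on one row.

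Its neighbour Cdkn2b, which encodes p15 and is induced by TGF-beta (chr4:89306289-89311032), was detected in every library. It measured 4.15, 4.83 and 3.55 CPM in Old-GFP, and 3.68, 9.07, 0.646 and 4.87 CPM in Old-GSTA4. The Old-GFP libraries lay close together, while the Old-GSTA4 libraries held both the highest value and the lowest, which rested on 11 counts in replicate 3, the library with the least hGSTA4. The ratio of the highest to the lowest library was 14.0, the widest of the 8 genes. On the log2 scale Old-GSTA4 differed by 0.13 ± 0.69 (SE, 95% interval -1.42 to 1.69, edgeR adjusted p = 0.958), and without Old-GSTA4 replicate 2 it was -0.44.

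Trp53, which encodes p53, varied least (chr11:69580348-69591873). It measured 8.95, 10.9 and 15.1 CPM in Old-GFP and 15.5, 11.3, 11.9 and 11.1 CPM in Old-GSTA4, a ratio of 1.73 between the extreme libraries. Each group held 1 library near 15 CPM and the rest lay between 8.95 and 11.9 CPM. The group difference, as a log2 fold change, was 0.10 ± 0.29 (SE, 95% interval -0.56 to 0.75, edgeR adjusted p = 0.920). Its activity is set mainly at the protein level, which these counts do not measure.

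Mdm2, the p53 ubiquitin ligase and itself a p53 target, had the highest level of the 9 per exon length (chr10:117688875-117710758). It measured 43.9, 51.8 and 49.6 CPM in Old-GFP and 54.4, 98.1, 55.8 and 44.7 CPM in Old-GSTA4. Old-GSTA4 replicates 1, 2 and 3 lay above all Old-GFP libraries and replicate 4 fell inside their range. The means were 48.4 CPM ± 4.04 (SD, n = 3) and 63.3 CPM ± 23.7 (SD, n = 4), and the log2 fold change of 0.38 ± 0.28 (SE) had a 95% interval from -0.25 to 1.02 and an edgeR adjusted p of 0.601. The size of this value rested on 1 library, since without Old-GSTA4 replicate 2 it was 0.11 ± 0.21 (SE). It was positive in every alternative run, from 0.06 with a lens score as covariate to 0.62 with a rod score.

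Lmnb1 encodes lamin B1 of the nuclear envelope. It measured 0.839, 3.36 and 3.99 CPM in Old-GFP and 2.11, 1.73, 1.29 and 1.03 CPM in Old-GSTA4. Old-GFP replicates 2 and 3 lay above every Old-GSTA4 library, but Old-GFP replicate 1 was the lowest of all 7, on 18 counts. The means were 2.73 CPM ± 1.67 (SD, n = 3) and 1.54 CPM ± 0.474 (SD, n = 4). The fit gave a log2 fold change of -0.82 ± 0.66 (SE, 95% interval -2.31 to 0.66, edgeR adjusted p = 0.637).

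The 2 libraries with the most Lmnb1 were those with the most rod transcripts. Rod markers summed to 38250 CPM in Old-GFP replicate 3 and 23120 CPM in replicate 2, against 7019 to 13880 CPM in the other 5 libraries. The highest of these 5 was Old-GFP replicate 1, the library with the least Lmnb1. Over the 7 libraries, on the log2 scale, Lmnb1 gave r = 0.818 with rod, 0.854 with cone and 0.781 with endothelial markers. It gave -0.742 with RPE markers and -0.889 with Y-linked genes, and the separate parts of these were not tested. With a rod score as covariate the Lmnb1 log2 fold change turned to 0.91 ± 1.05 (SE), without Old-GFP replicate 3 it was -0.46, and without Old-GFP replicate 1 it was -1.25. Within the Y-linked classes it measured 0.839 CPM in Old-GFP against 1.03 to 1.29 CPM in Old-GSTA4 where Y-linked counts were present, and 3.36 to 3.99 CPM against 1.73 to 2.11 CPM where they were not, so that the order of the vector groups differed between the classes, a difference that was not tested. The part of rod cells in these values was not tested, since rod level largely followed the vector group.

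Gdf15 encodes a secreted factor of the TGF-beta superfamily that responds to p53 and to the integrated stress response (chr8:70629393-70632470). It measured 0.839, 1.24 and 0.240 CPM in Old-GFP and 1.00, 2.21, 0.411 and 1.40 CPM in Old-GSTA4. These values rest on 5 to 46 counts per library, and the groups overlapped. In the fit its log2 fold change was 0.70 ± 0.88 (SE, 95% interval -1.28 to 2.67, edgeR adjusted p = 0.777), the widest interval of the 8 genes. Single libraries moved this value: it was 0.28 without Old-GFP replicate 3, 0.29 without Old-GSTA4 replicate 2 and 1.21 without Old-GFP replicate 2. Gdf15 was highest in Old-GSTA4 replicate 2 and lowest in Old-GFP replicate 3, the libraries with the highest and the lowest lens fibre marker level (100200 and 2684 CPM). With the lens score as covariate its log2 fold change was -0.17, and with the rod score -0.42.

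**Figure D2:**
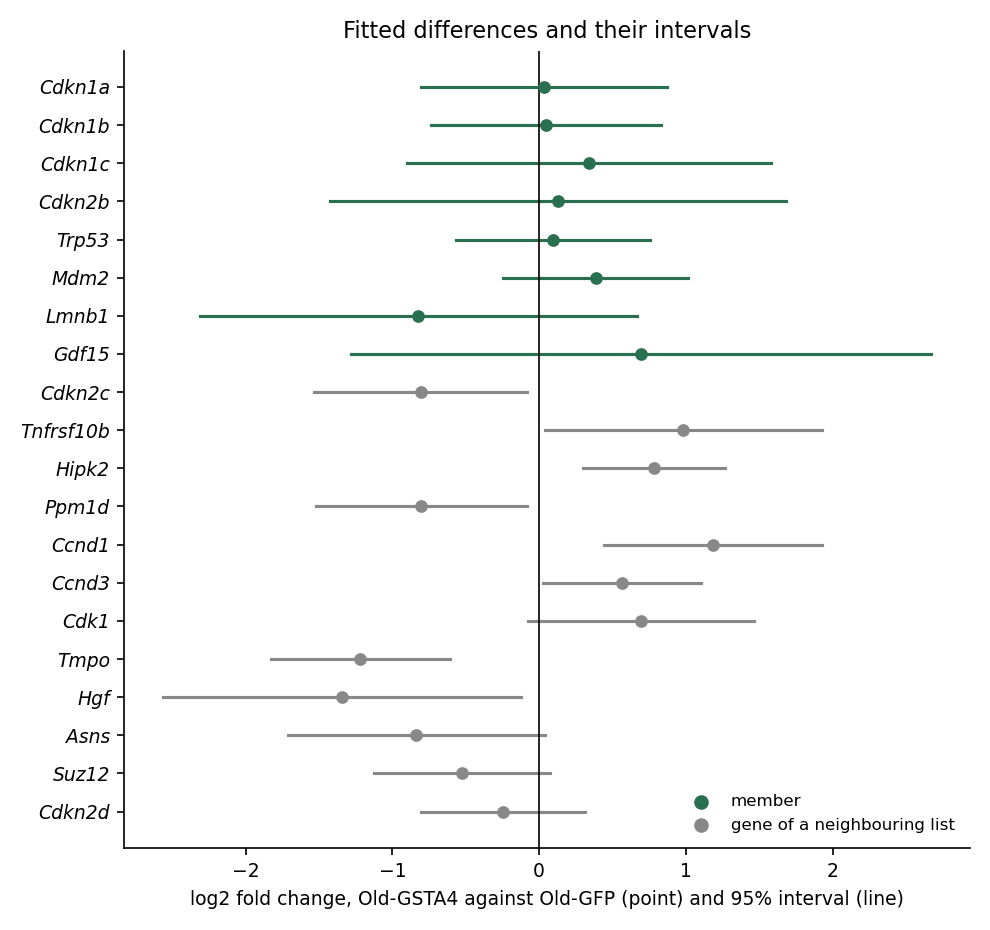
Log2 fold change of Old-GSTA4 against Old-GFP (points) with 95% intervals (lines) in edgeR's fit, for the 8 tested members (green) and for the genes named from the lists around them (grey). The intervals of all 8 members cross 0, from the narrowest, Mdm2, at -0.25 to 1.02, to the widest, Gdf15, at -1.28 to 2.67.

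Scaled by length, as CPM per kilobase of merged GENCODE M21 exons, Mdm2 led with 11.2 ± 3.68 (SD over 7 libraries) and was above the next gene in 7 of 7 libraries. Cdkn1c (4.86 ± 2.95), Cdkn1a (4.25 ± 1.45), Cdkn2b (3.16 ± 1.80) and Trp53 (2.99 ± 0.581) followed, and their order changed from library to library: Cdkn1c exceeded Cdkn1a in 3 of 7 libraries and Cdkn2b exceeded Trp53 in 4 of 7. Cdkn1b (2.30 ± 0.579) was below Trp53 in 6 of 7. Lmnb1 (0.692 ± 0.405) and Gdf15 (0.566 ± 0.356) had the lowest levels among the detected genes and did not separate from each other, with Lmnb1 higher in 4 of 7 libraries.

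The genes whose log2 CPM followed Cdkn1a most closely, among 11109 others whose mean log2 CPM reached 2, were Pus7 (r = 0.942 over 7 libraries), Gps2 (r = 0.939) and Stab1 (r = 0.936). PUS7 is a pseudouridine synthase, GPS2 a subunit of a nuclear co-repressor complex and stabilin-1 a scavenger receptor. These are the top of a ranking of all those genes on 7 points and are given as a description. Each was highest in Old-GSTA4 replicate 2, as Cdkn1a was, and Gps2 spanned only 27.6 to 39.8 CPM.

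The wider pathway was read from 9 lists with 121 different genes, of which 113 could be tested. After adjustment 0 passed in edgeR's fit. Before adjustment 8 had a p-value under 0.05 (4 higher and 4 lower in Old-GSTA4), or 7.08% of those tested, beside 11.9% of all genes, and 11 did not overlap between the groups, beside 12.0% of all genes. Medians of 6 of the 9 lists took both signs over the alternatives. The exceptions, negative in all that were run, were the other CDK inhibitors, the secretory genes and the Polycomb genes. By DESeq2 1 of the 113 passed (Tmpo), and by limma-voom 0.

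**Figure D3:**
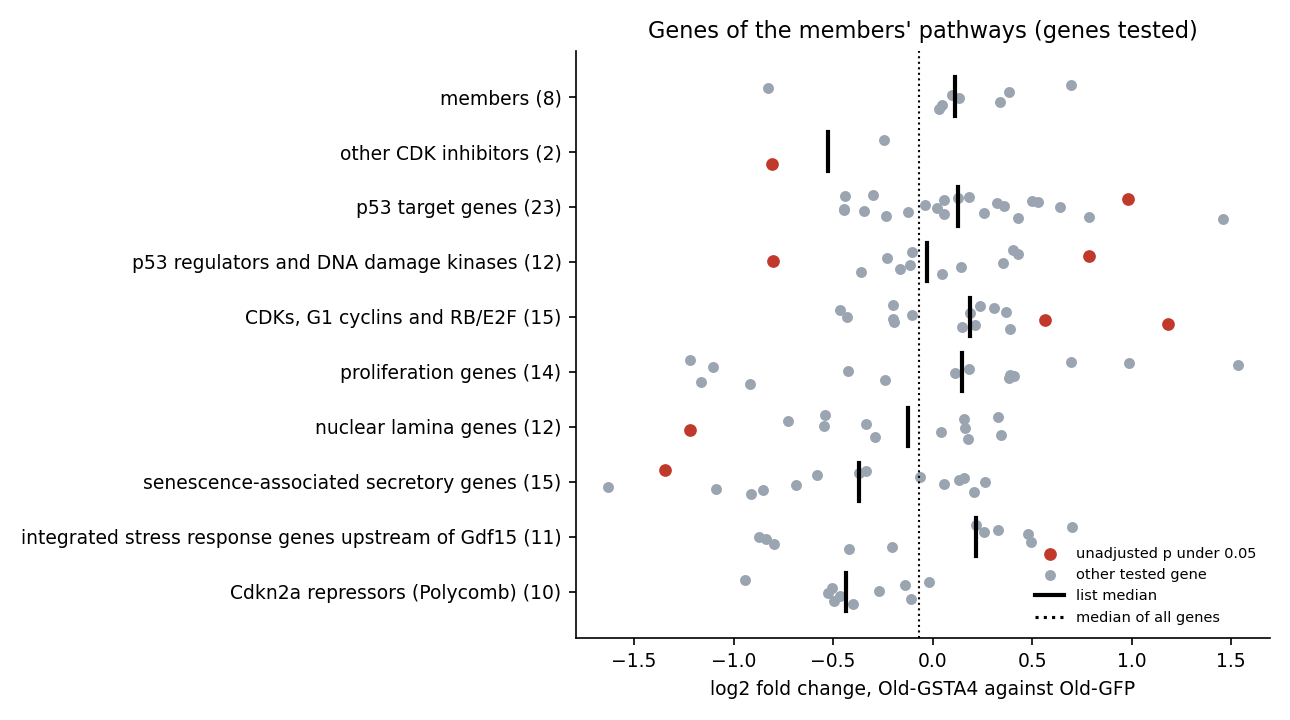
Log2 fold change of Old-GSTA4 against Old-GFP for each tested gene of the members and the 9 lists around them (number tested in brackets). Black bars are list medians, the dotted line is the median of all genes (-0.07), and the 8 red points have an unadjusted p-value under 0.05, none of which passed the adjusted threshold.

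The remaining INK4 inhibitors were both lower in the fit and neither passed. Cdkn2c, which encodes p18, measured 15.3, 20.7 and 17.7 CPM in Old-GFP and 10.4, 15.2, 6.76 and 8.49 CPM in Old-GSTA4. All Old-GSTA4 libraries lay below all Old-GFP libraries, though replicate 2 lay close to the lowest of them. Its log2 fold change was -0.81 ± 0.32 (SE) at an edgeR adjusted p of 0.384. Cdkn2d, which encodes p19 of the INK4 family and is named because its list holds only 2 genes, overlapped between the groups, with a log2 fold change of -0.24 ± 0.25 (SE).

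Of 23 p53 target genes, 15 had a positive and 8 a negative log2 fold change, with a median of 0.13, and 0 passed. The only one at an unadjusted p-value under 0.05 was Tnfrsf10b, a death receptor. It measured 17.0, 10.5 and 3.99 CPM in Old-GFP and 21.4, 20.1, 21.2 and 20.4 CPM in Old-GSTA4, a log2 fold change of 0.98 ± 0.42 (SE) at an edgeR adjusted p of 0.406. The 4 Old-GSTA4 libraries were nearly level, and the Old-GFP libraries ranked in the order of their RPE marker levels (68610, 54170 and 21800 CPM). With a rod score as covariate its log2 fold change was 0.14, but rod level largely followed the vector group. The part of RPE content was not tested.

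Among 12 regulators of p53 and DNA damage kinases, 6 had positive and 6 negative log2 fold changes (median -0.03). Hipk2, a kinase that phosphorylates p53, measured 36.3, 32.0 and 30.0 CPM in Old-GFP and 58.9, 42.4, 63.7 and 60.5 CPM in Old-GSTA4. All Old-GSTA4 libraries lay above all Old-GFP libraries, and the log2 fold change of 0.78 ± 0.22 (SE) had an edgeR adjusted p of 0.363. Ppm1d, which encodes the phosphatase WIP1 that dampens p53 signalling, measured 9.51, 10.2 and 8.84 CPM against 4.21, 5.47, 6.88 and 5.24 CPM. Its groups did not overlap either, and its log2 fold change was -0.80 ± 0.32 (SE) at an adjusted p of 0.384.

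The targets of the inhibitors included 2 D-type cyclins at an unadjusted p-value under 0.05, of 15 CDKs, G1 cyclins and RB/E2F genes tested (median 0.19), a share near the 11.9% of all genes. Ccnd1, which encodes cyclin D1, the CDK4 and CDK6 partner, measured 9.55, 8.88 and 4.27 CPM in Old-GFP and 15.8, 17.5, 19.4 and 16.2 CPM in Old-GSTA4. The groups were well apart, with a log2 fold change of 1.18 ± 0.33 (SE), yet the adjusted p-value was 0.363 in edgeR's test. Over the alternatives it ranged from 0.0548 to 0.865 and its log2 fold change from 0.73 to 1.39. Ccnd3, which encodes cyclin D3, measured 157, 148 and 94.6 CPM in Old-GFP and 202, 172, 198 and 217 CPM in Old-GSTA4, a log2 fold change of 0.57 ± 0.24 (SE) at an adjusted p of 0.402. Both cyclins were lowest in Old-GFP replicate 3, the library with the least RPE and the most rod signal. With a rod score as covariate Ccnd1 was at 0.73 ± 0.47 (SE) and Ccnd3 at 0.17 ± 0.31 (SE). Since rod level did not overlap between the groups, that fit cannot fully separate rod content from vector group. For both cyclins the part of cell content was not tested.

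Genes of DNA replication and mitosis gave no call, with 8 positive and 6 negative log2 fold changes of 14 tested (median 0.15). The smallest p-value was that of Cdk1, the mitotic kinase, at 17.1, 15.5 and 6.87 CPM in Old-GFP and 16.8, 19.9, 25.6 and 23.1 CPM in Old-GSTA4 (log2 fold change 0.70 ± 0.34 SE, adjusted p = 0.450 in edgeR's test). Its groups overlapped, and its lowest value was again that of Old-GFP replicate 3, without which the log2 fold change was 0.39. Adding the rod score, which largely followed the vector group, took it to 0.074, and the part of cell content was not tested.

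In the nuclear lamina list, 6 of 12 genes had positive and 6 negative log2 fold changes (median -0.13). Tmpo, which encodes lamina-associated polypeptide 2, a partner of B-type lamins, measured 31.5, 21.2 and 37.0 CPM in Old-GFP and 13.6, 14.6, 9.70 and 13.5 CPM in Old-GSTA4. Every Old-GSTA4 library lay below every Old-GFP library, and the log2 fold change was -1.22 ± 0.27 (SE). It did not pass in edgeR's test (adjusted p = 0.363) and did pass in DESeq2 (log2 fold change -1.20, adjusted p = 0.0207). With a rod score as covariate its log2 fold change was -1.19 ± 0.42 (SE), and over all alternatives it lay between -1.55 and -0.95. Rod level largely followed the vector group, and the part of cell content was not tested.

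Of 20 genes of the senescence-associated secretory programme, 15 had enough counts to be tested. In the fit 5 had positive and 10 negative log2 fold changes, with a median of -0.37, and 0 passed. Without Old-GFP replicate 2 the median was -0.053, without Old-GFP replicate 3 there were 0 positive and 15 negative values, and with the rod score the median was -1.12. Hgf, a growth factor, was the only one at an unadjusted p-value under 0.05, at 4.29, 2.39 and 5.04 CPM in Old-GFP and 1.11, 1.44, 1.18 and 2.40 CPM in Old-GSTA4. Its groups met at 2.39 and 2.40 CPM, and its log2 fold change of -1.34 ± 0.54 (SE) had an edgeR adjusted p of 0.391.

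Genes of the integrated stress response, to which Gdf15 responds, gave 6 positive and 5 negative log2 fold changes of 11 (median 0.22). The direction of that median depended on Old-GSTA4 replicate 2, without which it was -0.28, and on Old-GFP replicate 1, without which it was -0.020. It was also negative with limma-voom (-0.36), the lens score (-0.39), the block by library number (-0.20) and library totals (-0.08, where the all-gene median was -0.37). Asns, an asparagine synthetase induced by ATF4, had the smallest p-value, at 23.7, 18.2 and 35.6 CPM in Old-GFP and 24.3, 14.7, 8.82 and 10.1 CPM in Old-GSTA4 (log2 fold change -0.84 ± 0.39 SE, adjusted p = 0.433 in edgeR's test), so that its fitted value was opposite in sign to that of Gdf15. The Polycomb genes, whose products repress the Cdkn2a locus, had negative log2 fold changes in 10 of 10 cases in the main fit. Over the alternatives 6 to 10 were negative, with 7 under the lens score or without Old-GFP replicate 3. The count was 6 with a rod score or with 2 libraries omitted. In the main fit their median was -0.43 with a range from -0.94 to -0.02, but 0 were at an unadjusted p-value under 0.05. Suz12, a core Polycomb subunit, came closest, at 20.1, 19.1 and 22.0 CPM against 16.9, 12.3, 17.2 and 10.2 CPM (log2 fold change -0.53 ± 0.27 SE, adjusted p = 0.465 in edgeR's test). The Polycomb median stayed negative in all alternatives, from -0.69 with library totals to -0.19 with a rod score as covariate, beside all-gene medians of -0.37 and 0.02 in those fits. Rod markers had negative log2 fold changes too, 12 of 12 with a median of -1.26.

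**Figure D4:**
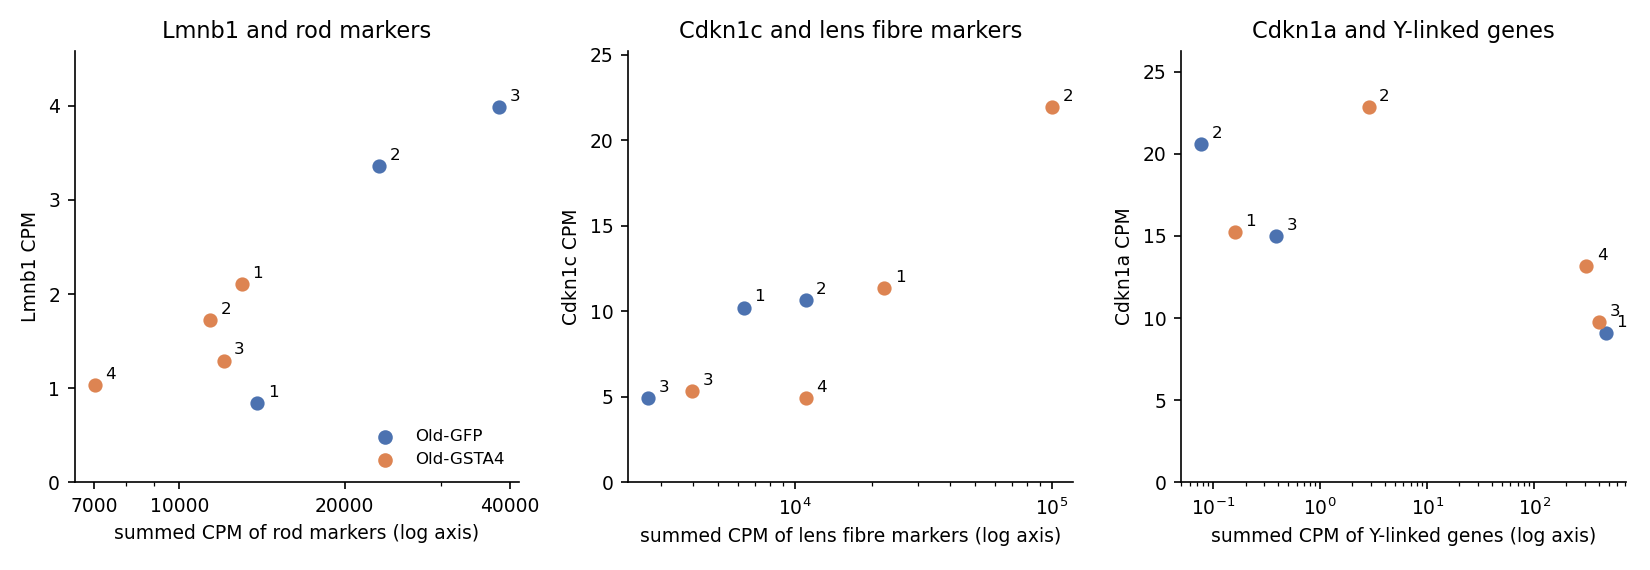
Level of 3 members (vertical axes, CPM) against the summed level of a marker list (horizontal log axes, CPM) in each of the 7 libraries, coloured by group and numbered by replicate. Lmnb1 is highest in the 2 libraries with the most rod signal and lowest in Old-GFP replicate 1, which has the next highest rod signal. Cdkn1c is highest in the library with the most lens signal (100200 CPM), and Cdkn1a is lowest in the 3 libraries with Y-linked counts (9.09 to 13.2 CPM).

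Single libraries set the extremes of several members at once. Old-GSTA4 replicate 2 was the highest library for 5 of the 8 detected genes (Cdkn1a, Cdkn1c, Cdkn2b, Mdm2 and Gdf15) and the lowest for Cdkn1b, while Old-GFP replicate 1 was the lowest for Cdkn1a, Trp53, Mdm2 and Lmnb1. Leaving out both Old-GFP replicate 3 and Old-GSTA4 replicate 2, an alternative chosen after the data were seen, still gave 0 members past the threshold or at an unadjusted p-value under 0.05.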

How the data were processed

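Per the submitters' processing notes, STAR 2.7.1a and featureCounts 1.6.2 were used and GRCm38/mm10 and GRCh38/hg38 were among the builds. The authors deposited raw read counts per gene symbol, 1 column per library. The annotation, strand setting and multi-mapping rule are not given in the sources used here. Per the labels' protocols, cDNA came from a SMART-Seq v4 low-input kit without mention of molecular identifiers, so PCR copies may have been counted separately. Columns were matched to samples by library name, and replicates carry the numbers of the titles. Of 24 repeated symbols (26 extra rows), the one with most counts kept the plain symbol. Counts were tested with edgeR 4.0.16 (R 4.3.3): quasi-likelihood F-test, robust, TMM scaling, default expression filter, group as the only factor, Benjamini-Hochberg adjustment over 15075 genes, threshold 0.05. Standard errors were derived from the F statistic, and intervals are 95%. The detection limit was 3 counts. No library pair agreed within sampling noise (smallest chi-square per gene 57.5). Tests were fitted on simulated counts: with no changed gene 0 of 14739 were called, and with 200 genes changed 4-fold 110 of them were called, among 117 calls over 14760 genes. The simulated counts were drawn gene by gene around a shared mean, apart from the set changes. They held no outlying library and no difference in cell content. With no changed gene 4.35% were at an unadjusted p-value under 0.05 in edgeR's test, against 11.9% in the real data. The simulated shares therefore need not hold for these data.

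The alternatives were other scalings (median of ratios, library totals), other filters (none, at least 10 counts in every library), DESeq2 1.42.0, limma-voom (limma 3.58.1) with quality weights, replicate blocks by either numbering, rod and Y-linked scores as covariates, and each library left out. A lens score and the omission of 2 libraries were added after the data were seen. Genes named are the members and, from each list, those at an unadjusted p-value under 0.05 (at most 4) or else the smallest p-value, with the 3 genes most correlated with Cdkn1a. Members and lists were chosen with earlier results of these data known.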

Additional observations from a re-analysis of the deposited data

Results flagged for a closer look

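Within the Old-GSTA4 group, 36 measures were examined for a library that lies apart from the other 3, where chance flags about 5% of such groups, and 2 were found. Trp53 was at 15.5 CPM in Old-GSTA4 replicate 1 and at 11.1 to 11.9 CPM in the others, which put 0.832 of the spread in that single gap. An Old-GFP library reached 15.1 CPM. The summed T cell markers were at 2.92 CPM in Old-GSTA4 replicate 4 and at 1.34 to 1.58 CPM in the others, or 0.850 of the spread. Old-GFP replicate 2 was higher, at 3.82 CPM.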

How the results depend on the processing

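No member passed the adjusted threshold, or had an unadjusted p-value under 0.05, in any of the 19 alternatives that could be fitted. DESeq2 gave no adjusted value for Lmnb1 or Gdf15, Gdf15 could not be fitted with at least 10 counts in every library, and Cdkn2a had no counts in any. Over all genes, edgeR's count of 0 became 166 with DESeq2 (the cause was not tested), 1 with either replicate block (hGSTA4), 1 with the rod score (Cyp2f2), 1 with the Y-linked score (d2EGFP), and 0 to 1 (hGSTA4) when libraries were left out in turn. Genes at an unadjusted p-value under 0.05 numbered 849 to 3293. With library totals the all-gene median went from -0.07 to -0.37 (log2), and 11.1% of the genes at an unadjusted p-value under 0.05 were higher in Old-GSTA4 in place of 44.3%. Member signs often turned, the cause untested. With library totals Cdkn1a was -0.28, Cdkn1b -0.25, Cdkn2b -0.14 and Trp53 -0.25, each above that median. With limma-voom Cdkn1a was -0.25, Cdkn1b -0.083, Cdkn1c -0.56 and Cdkn2b -0.47. The replicate block by title number gave -0.023 for Cdkn1b and -0.48 for Cdkn2b, and the block by library number -0.17 for Cdkn1a, -0.28 for Cdkn1c and -0.76 for Cdkn2b. Same-numbered libraries did not deviate together (correlations -0.128 to 0.0146), so the numbers were not taken as pairs. With the rod score Cdkn2b was -0.38, Lmnb1 0.91 and Gdf15 -0.42. With the lens score, added after the data were seen, Cdkn1a was -0.43, Cdkn1c -0.64, Cdkn2b -1.10 and Gdf15 -0.17. Without both Old-GFP replicate 3 and Old-GSTA4 replicate 2 they were -0.23, -0.53, -0.54 and -0.14. With single libraries left out the log2 fold changes ranged from -0.22 to 0.35 (Cdkn1a), -0.090 to 0.26 (Cdkn1b), -0.24 to 0.61 (Cdkn1c), -0.44 to 0.51 (Cdkn2b) and -0.056 to 0.32 (Trp53). Lmnb1 (-1.25 to -0.46) and Gdf15 (0.28 to 1.21) kept their sign when single libraries were left out. Mdm2 and all named pathway genes kept theirs in every alternative. Counts per library were low for Gdf15 (5 to 46), Cdkn2b (11 to 189) and Lmnb1 (18 to 87), which limits their precision.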
